A study of Homo sapiens with 18 samples.

Results

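Transcripts of 10 inflammatory cytokine genes were followed in 3 human acute myeloid leukaemia cell lines with and without an inhibitor of the phosphatase SHP2. The genes were TNF, LTB, TNFSF10, IL1B, CXCL8, CCL2, CCL3, CCL4, CXCL10 and IL10, which were 10 of the 40184 genes in the deposited table, found by their Ensembl gene IDs. The set was put together for a shared role in inflammation and was chosen by gene name with earlier results of these data known, among them a lower TNF level in drug-treated MV4-11. The drug comparison in MV4-11 is therefore described below without tests. Tests are given for the other comparisons, with the reservation that no record says which further values were known when the genes were chosen. Of the 10 genes, 6 had enough reads to be tested in at least 1 comparison, and the remaining 4 are given as read counts.

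Molm-14 and MV4-11 carry FLT3-ITD, an internal tandem duplication in the receptor tyrosine kinase gene FLT3, and SKNO-1 carries KIT N822K, a substitution in the receptor tyrosine kinase KIT, per the labels. Cells of each line received DMSO, the solvent, or 500 nM RMC-4550 for 24 h, with 3 libraries in each of the 6 groups and 18 libraries in all. RMC-4550 is an allosteric inhibitor of SHP2, the phosphatase encoded by PTPN11, through which receptor tyrosine kinases activate RAS and ERK. SKNO-1 was cultured with 10 ng/mL GM-CSF and the other lines were not, so in every comparison with SKNO-1 the line and this growth factor cannot be told apart. The labels call the libraries biological replicates but do not say whether they came from separate cultures or days, so the p-values measure the spread between these libraries, which may in part be technical. In bulk RNA of this kind, fewer cells that make a transcript and less of it per cell cannot be told apart.

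Cytokines are secreted or membrane-bound proteins with which cells signal through receptors on their neighbours or on themselves. TNF, IL-1β and the chemokines are classical products of activated monocytes and macrophages, their genes respond to NF-kB, AP-1 and MAP kinase signalling, and their messages are short-lived. Leukaemic blasts with monocytic features can make the same proteins.

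The libraries held 17434810 to 19959917 reads, and levels are given as CPM, in which read counts are brought to 1 library size with the authors' scaling factors, so that 1 CPM stood for 15.61 to 21.79 reads. The 5 myeloid markers CD33, SPI1, MPO, CEBPA and LYZ were above 3 reads in every group and summed to 498 to 1193 CPM. RUNX1T1, part of the fusion gene of t(8;21) leukaemias such as SKNO-1, was read at 13.2 to 14.4 CPM in its DMSO libraries and was at the floor of 3 reads or fewer per library in the other lines. The 4 T cell and 3 epithelial markers were at that floor in every group, and the 3 NK markers summed to at most 0.961 CPM. The 4 B cell markers summed to 1.41 to 3.72 CPM in Molm-14, 9.67 to 12.9 in MV4-11 and 15.9 to 19.1 in SKNO-1, with MS4A1 at the floor in every group, and the 4 fibroblast markers to 3.28 to 13.7 CPM over all lines, with DCN at the floor. Mitochondrial genes took 5.073% to 7.017% of reads in 14 libraries but 10.517% to 15.017% in the other 4, which were replicate 2 of Molm-14 with RMC-4550, replicates 1 and 3 of MV4-11 with DMSO and replicate 1 of MV4-11 with RMC-4550. Comparisons of the 10 genes that use these 4 libraries are in most cases also given without them, as are the counts of listed genes called.

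The promoters of TNF, LTB, TNFSF10 and CXCL10 are shown because TNF and LTB transcripts were both lower with drug in the FLT3-ITD lines, TNFSF10 was higher with drug in MV4-11 and SKNO-1, and CXCL10, a textbook interferon target, had few reads in all lines. Each line holds the 250 bases before the start site on the gene's own strand, from RefSeq on GRCh38.p14, in lower case, with matches to a searched motif in capitals. The regions are chr6:31575315-31575564 on the plus strand for TNF, chr6:31582426-31582675 on the minus strand for LTB, chr3:172523431-172523680 on the minus strand for TNFSF10 and chr4:76023498-76023747 on the minus strand for CXCL10.
TNF: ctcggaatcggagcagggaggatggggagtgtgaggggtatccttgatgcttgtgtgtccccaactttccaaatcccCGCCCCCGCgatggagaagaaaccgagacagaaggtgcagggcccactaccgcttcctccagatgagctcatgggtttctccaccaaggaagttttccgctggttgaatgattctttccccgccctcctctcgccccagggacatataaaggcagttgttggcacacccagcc
LTB: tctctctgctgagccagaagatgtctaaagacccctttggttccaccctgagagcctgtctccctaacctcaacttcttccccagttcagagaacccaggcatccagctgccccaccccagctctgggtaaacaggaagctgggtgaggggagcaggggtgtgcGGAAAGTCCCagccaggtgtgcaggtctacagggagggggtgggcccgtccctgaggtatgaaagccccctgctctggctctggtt
TNFSF10: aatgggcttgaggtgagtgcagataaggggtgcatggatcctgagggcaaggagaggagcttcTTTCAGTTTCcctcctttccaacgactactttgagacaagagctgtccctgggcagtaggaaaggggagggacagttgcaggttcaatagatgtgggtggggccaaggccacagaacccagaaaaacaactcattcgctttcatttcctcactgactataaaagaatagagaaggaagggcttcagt
CXCL10: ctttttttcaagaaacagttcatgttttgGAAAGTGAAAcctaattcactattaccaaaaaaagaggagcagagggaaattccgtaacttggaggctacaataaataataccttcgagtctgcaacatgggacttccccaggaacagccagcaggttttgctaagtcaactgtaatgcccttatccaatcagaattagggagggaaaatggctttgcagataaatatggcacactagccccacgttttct
A set of 6 motifs was searched on both strands. The TNF window held 1 match to the EGR motif GCGGGGGCG, on the reverse strand and starting 173 bases before the start site, and 4.72% of the 35116 promoter windows of this length hold that motif. In LTB the match was to the NF-kB motif GGGNNTTTCC, on the reverse strand at 86 bases before the start, which 1.73% of windows hold. TNFSF10 and CXCL10 each held a match to an interferon response element, GAAANNGAAA, at 187 bases before the start on the reverse strand and at 221 bases before it on the gene's strand. That motif is in 3.02% of windows. CXCL8 had an AP-1 match, TGANTCA, 137 bases before its start, and an alternative start site of IL10 had another at 69 bases, and AP-1 is in 6.57% of windows. Neither the CRE motif TGACGTCA nor the ETS motif CCGGAAGT, in 1.65% and 3.42% of windows, matched in any of the 8 genes with a RefSeq entry, and IL1B and CCL3 matched none of the 6 motifs. A match is a run of letters and not a measured binding site, and the windows of CCL2 and CCL4 were not analysed here. Each motif was searched as 1 fixed string, so sites that differ from it by a letter were missed. A window without a match can therefore still hold a site of that kind.

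TNF was the most abundant of the 10 transcripts in every line with DMSO, and RMC-4550 lowered it in Molm-14 and SKNO-1. TNF (ENSG00000232810, chr6:31575567-31578336, plus strand, GRCh38) encodes tumour necrosis factor, which is made as a membrane protein and cut free by the protease ADAM17. In Molm-14 with DMSO the 3 libraries had 84.6, 81.7 and 84.6 CPM, from 1417 to 1522 reads each, and with RMC-4550 they had 16.8, 19.3 and 16.4 CPM. The groups lay far apart, with every treated library more than 60 CPM below the lowest DMSO library.

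In SKNO-1 the level was lower from the start, at 16.8, 16.8 and 15.6 CPM with DMSO, and RMC-4550 libraries had 1.57, 2.27 and 1.98 CPM, from 34 to 49 reads. The treated SKNO-1 libraries were thus the lowest of all 18 for TNF. MV4-11 had 92.1, 79.4 and 88.2 CPM with DMSO and 19.5, 18.5 and 18.4 CPM with RMC-4550, again without overlap.

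Mean TNF fell 4.77-fold in Molm-14, a log2 change of -2.26 with an SE of 0.12 (limma adjusted p = 1.56e-09). The fall in SKNO-1 was 8.47-fold, a log2 change of -3.08 with an SE of 0.12 (limma adjusted p = 2.14e-10). In MV4-11 the mean was 4.61-fold lower with drug, a log2 difference of -2.20, given as a description. The SKNO-1 change minus the Molm-14 change was -0.83 on the log2 scale (SE 0.16, limma adjusted p = 0.00373), a difference that was -0.38 and no longer called when 1 was added to the CPM before the logarithm. Whether the response of MV4-11 differed from the others was not tested.

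TNF stayed at this size of change in the libraries of low mitochondrial share. Without replicate 2 of the treated Molm-14 libraries the log2 change was -2.33. In MV4-11 the difference was -2.11 among the libraries under 10% mitochondrial reads, with 1 DMSO and 2 treated libraries, and -2.21 among those over it, with 2 DMSO libraries and 1 treated. All 6 SKNO-1 libraries were under 10%.

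**Figure D1:**
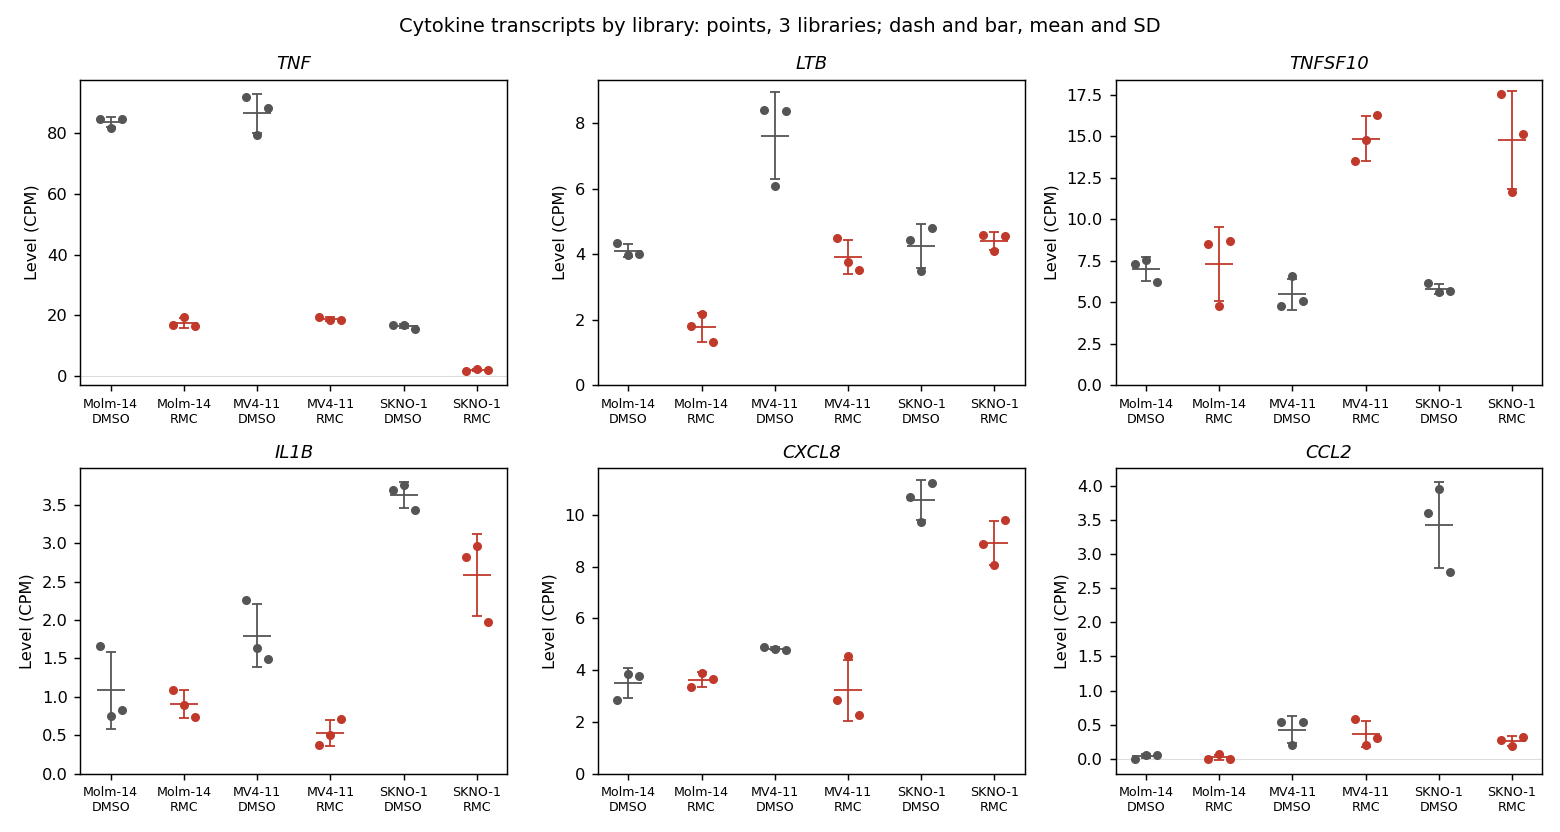
Levels in CPM of the 6 genes with enough reads to be tested, by group, with 1 point per library (grey, DMSO; red, RMC-4550), a dash for the mean and a bar for the SD of 3 libraries. TNF with DMSO had a mean of 83.6 CPM for Molm-14, 86.6 for MV4-11 and 16.4 for SKNO-1, and every treated group lay below its own DMSO group without overlap.

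LTB lies beside TNF, with its 3′ end 2188 bases from that of TNF. With RMC-4550, however, LTB fell in Molm-14 and was not called in SKNO-1, the line with the largest TNF fall on the log2 scale. LTB (ENSG00000227507, chr6:31580525-31582522, minus strand) encodes lymphotoxin beta, the membrane anchor of the lymphotoxin complex that signals through LTBR. Molm-14 had 4.33, 3.98 and 4.01 CPM with DMSO and 1.80, 2.18 and 1.30 CPM with RMC-4550. The treated libraries held 23 to 34 reads each and lay below all DMSO libraries.

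The fall in Molm-14 was 2.33-fold, a log2 change of -1.24 with an SE of 0.19 (limma adjusted p = 9.64e-05). In SKNO-1 the libraries had 4.43, 3.49 and 4.80 CPM with DMSO and 4.58, 4.08 and 4.55 CPM with drug, which overlapped. The SKNO-1 change of 0.07 was not called (limma adjusted p = 0.842), with a 95% interval from -0.35 to 0.48. The drug effect on LTB differed between SKNO-1 and Molm-14 by 1.30 (SE 0.27, limma adjusted p = 0.00598).

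MV4-11 held the most LTB of the untreated lines, at 8.39, 6.09 and 8.38 CPM, and had 4.49, 3.75 and 3.50 CPM with RMC-4550. The MV4-11 groups did not overlap and the means were 1.95-fold apart. Within mitochondrial classes the MV4-11 difference was -0.74 and -0.90, and in Molm-14 without replicate 2 of the treated libraries the change was -1.41. LTA, the partner of LTB in the membrane-bound complex, was at a mean of 0.49 to 1.002 CPM in all 6 groups and was not tested with drug in any line.

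TNFSF10 went the other way from TNF in SKNO-1. The gene (ENSG00000121858, chr3:172505508-172523507, minus strand) encodes TRAIL, a ligand that can start apoptosis through the receptors TNFRSF10A and TNFRSF10B. SKNO-1 had 6.14, 5.60 and 5.65 CPM with DMSO and 17.5, 11.6 and 15.1 CPM with RMC-4550. Each treated library was above each DMSO library.

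TNFSF10 rose 2.55-fold in SKNO-1, a log2 change of 1.33 with an SE of 0.21 (limma adjusted p = 0.000197). MV4-11 had 4.74, 6.55 and 5.09 CPM with DMSO and 13.5, 14.7 and 16.2 CPM with drug, 2.72-fold higher and without overlap. In Molm-14 the values were 7.28, 7.55 and 6.18 CPM with DMSO and 8.47, 4.74 and 8.65 CPM with drug. The low treated library, replicate 2, is the one with 15.017% mitochondrial reads, and the other treated Molm-14 libraries were above all DMSO libraries of that line.

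The change of TNFSF10 in Molm-14 was 0.01 and not called (limma adjusted p = 0.968; 95% interval -0.43 to 0.46), and without replicate 2 it was 0.29 and still not called. The SKNO-1 response exceeded that of Molm-14 by 1.32 (SE 0.30, limma adjusted p = 0.00906). Without that Molm-14 library the difference was 1.03 and was called. Within mitochondrial classes the MV4-11 difference was 1.24 under 10% and 1.46 over it.

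IL1B and CXCL8 were highest in SKNO-1, and IL1B had few reads. IL1B (ENSG00000125538, chr2:112829751-112836903, minus strand) encodes interleukin-1β, made as a precursor that caspase-1 cuts. With DMSO it was at 1.67, 0.75 and 0.84 CPM in Molm-14, from 30, 13 and 15 reads. MV4-11 had 2.26, 1.64 and 1.496 CPM, from 42, 32 and 25 reads, and SKNO-1 had 3.69, 3.76 and 3.44 CPM, from 80, 82 and 73 reads.

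All SKNO-1 libraries with DMSO were above all others for IL1B, while Molm-14 and MV4-11 overlapped. With RMC-4550 the SKNO-1 libraries had 2.82, 2.97 and 1.98 CPM, below each DMSO library, but the log2 change of -0.51 was not called (limma adjusted p = 0.248; 95% interval -1.15 to 0.14). In MV4-11 the treated libraries had 7, 10 and 14 reads, a mean 3.40-fold lower, and the log2 difference was -1.41 in the libraries under 10% mitochondrial reads and -2.24 in those over it. That line entered the fit for IL1B only through its DMSO libraries, so a lower treated level was a condition of being listed. In Molm-14 the treated libraries had 20, 14 and 13 reads, overlapping the DMSO libraries, and IL1B was not tested there.

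CXCL8 (ENSG00000169429, chr4:73740506-73743716, plus strand) encodes interleukin-8, which draws neutrophils through CXCR1 and CXCR2. With DMSO, Molm-14 had 2.83, 3.86 and 3.79 CPM, MV4-11 had 4.90, 4.81 and 4.79 CPM and SKNO-1 had 10.7, 9.73 and 11.3 CPM. The lines did not overlap. RMC-4550 libraries had 3.33, 3.91 and 3.68 CPM in Molm-14 and 8.88, 8.07 and 9.79 CPM in SKNO-1, which overlapped the DMSO values in both lines.

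The CXCL8 change was 0.07 in Molm-14 (limma adjusted p = 0.794; 95% interval -0.36 to 0.49) and -0.25 in SKNO-1 (limma adjusted p = 0.404; 95% interval -0.67 to 0.18). The Molm-14 change was 0.02 without the high-mitochondrial libraries. In MV4-11 the treated libraries had 2.85, 4.56 and 2.28 CPM, all below the DMSO libraries, with replicate 2 close to them. The MV4-11 difference was -0.64 on the log2 scale and -0.42 without replicate 3 of the treated libraries, and within mitochondrial classes it was -0.57 and -0.76.

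CCL2 was read mainly in SKNO-1. CCL2 (ENSG00000108691, chr17:34255218-34257203, plus strand) encodes the monocyte chemoattractant that binds CCR2. SKNO-1 had 78, 86 and 58 reads with DMSO, or 3.599, 3.95 and 2.73 CPM, and 6, 4 and 7 reads with RMC-4550, or 0.28, 0.19 and 0.32 CPM. The treated and untreated libraries were far apart, although 4 to 7 reads leave a wide counting error.

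The means were 13.1-fold apart, a log2 difference of -3.61 with an SE of 0.59, and -1.80 on a scale with 1 added to the CPM before the logarithm. The gene passed the low-value filter in SKNO-1 only through its DMSO libraries, so a lower treated level was a condition of its being fitted and no p is given. Molm-14 libraries had 0 or 1 read of CCL2 in both groups, and MV4-11 libraries had 4 to 10 reads with DMSO and 4 to 11 with drug, which overlapped. CCR2, its receptor, averaged 71.0 ± 0.83 CPM (SD, n = 3) in untreated SKNO-1 and 5.55 ± 0.56 CPM in untreated Molm-14. In untreated MV4-11, where CCL2 had few reads, CCR2 averaged 28.96 ± 13.42 CPM. The log2 difference of CCR2 between untreated SKNO-1 and MV4-11 was 1.386, and 0.676 without the high-mitochondrial libraries. CCR2 was thus well read in a line with little CCL2.

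The remaining chemokine genes and IL10 were near the detection limit. CXCL10 (ENSG00000169245, chr4:76021117-76023497, minus strand) encodes a T cell chemokine that interferons induce and that binds CXCR3. Its reads were 9, 10 and 6 in Molm-14 with DMSO and 5, 0 and 0 with RMC-4550. In MV4-11 they were 11, 8 and 5 with DMSO and 11, 14 and 9 with drug, and in SKNO-1 they were 0, 1 and 0 and then 3, 1 and 2.

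The Molm-14 groups did not overlap for CXCL10 and the others did or were at the floor, but no library reached 1 CPM and the gene was not tested. ART3, which overlaps CXCL10 on the opposite strand, had 0 to 30 reads with a median of 4, and the sources used here do not say whether strand was used in counting. Reads of these genes may therefore be mixed.

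CCL3 (ENSG00000277632, chr17:36088256-36090169, minus strand) and CCL4 (ENSG00000275302, chr17:36103590-36105621, plus strand) encode macrophage inflammatory proteins, chemokines for leukocytes. CCL3 had 13, 2 and 6 reads in MV4-11 with DMSO and 5 or fewer in every other library. CCL4 had 0 reads in all 9 DMSO libraries, for which a count of 0 allows up to 3 reads per library, and at most 2 with drug. At this depth no difference was detectable for either gene. Sharing of CCL4 reads with a related gene was not examined, so its counts of 0 need not mean absence.

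CCL3 has a near-identical copy, CCL3L3, whose coding transcript is 95.4% identical over its length, so that reads may have been split between them. The copy had more reads than the member itself in the FLT3-ITD lines, with 47, 32 and 35 in Molm-14 with DMSO and 57, 52 and 49 in MV4-11. In SKNO-1 with DMSO the copy had 1, 3 and 2 reads and CCL3 had 3, 3 and 2. With RMC-4550 it had 24, 23 and 19 reads in Molm-14 and 27, 20 and 21 in MV4-11, below the DMSO libraries in each case. The log2 change of CCL3L3 in Molm-14, -0.71, was not called (limma adjusted p = 0.334).

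IL10 (ENSG00000136634, chr1:206767602-206772494, minus strand) encodes an anti-inflammatory cytokine. No library had more than 2 reads of IL10. Its level was therefore at the floor in every group, and no change in it was detectable.

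**Figure D2:**
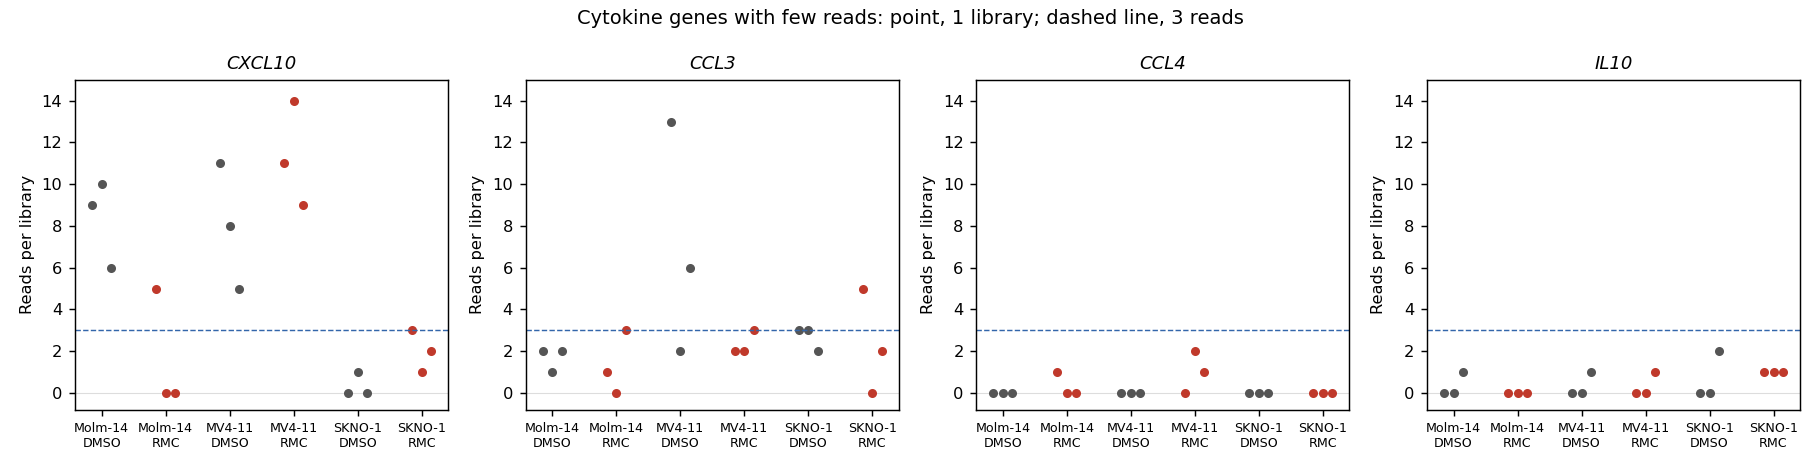
Reads per library of the 4 genes with too few reads to test, by group, with 1 point per library (grey, DMSO; red, RMC-4550) and a dashed line at 3 reads. CXCL10 reached 14 reads in MV4-11, CCL3 reached 13, and CCL4 and IL10 stayed at 2 or fewer.

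Across the untreated lines the members did not share an order. TNF was 5.09-fold lower in SKNO-1 than in Molm-14 (log2 difference -2.35, limma adjusted p = 2.84e-11) and 5.27-fold lower than in MV4-11 (-2.39, limma adjusted p = 1.23e-10). Molm-14 and MV4-11 did not differ in TNF beyond the spread of their libraries, with a difference of 0.05 and a 95% interval from -0.20 to 0.29 (limma adjusted p = 0.745). Without the high-mitochondrial libraries, which leaves 1 untreated MV4-11 library that is assumed to vary like the other groups, the TNF differences from MV4-11 were -2.27 for SKNO-1, still called, and -0.07 between MV4-11 and Molm-14, not called.

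CXCL8, IL1B and CCL2 had the opposite order, with SKNO-1 highest. CXCL8 was higher in SKNO-1 by 1.60 against Molm-14 (limma adjusted p = 2.77e-06) and by 1.12 against MV4-11 (limma adjusted p = 0.000348), the latter 1.13 and called without the high-mitochondrial libraries. IL1B was higher in SKNO-1 than in MV4-11 by 1.02 (limma adjusted p = 0.0142), a difference of 1.14 and called without the high-mitochondrial libraries but of 0.91 and not called without replicate 3 of MV4-11 with DMSO.

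The other differences of IL1B and CCL2 are descriptions, since in each pair the gene passed the filter only through the line in which it was higher. IL1B was higher in SKNO-1 than in Molm-14 by 1.81, and in MV4-11 than in Molm-14 by 0.78, or 0.67 without the high-mitochondrial libraries. CCL2 in SKNO-1 was at least 20.3-fold higher than in Molm-14, taking the floor of 3 reads per library, and 8.02-fold higher than in MV4-11. The log2 difference from MV4-11 was 3.02, and 3.89 without the high-mitochondrial libraries, which leaves 1 untreated MV4-11 library with 4 reads.

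LTB and TNFSF10 followed neither order. LTB was 0.87 higher in MV4-11 than in Molm-14 (limma adjusted p = 0.00142), and the 1 MV4-11 library of low mitochondrial share, at 6.09 CPM, was also above all Molm-14 libraries. SKNO-1 minus MV4-11 was -0.84 for LTB (limma adjusted p = 0.00276), while SKNO-1 and Molm-14 differed by 0.03 (limma adjusted p = 0.895). Without the high-mitochondrial libraries the LTB difference was 0.56 between MV4-11 and Molm-14, still called (limma adjusted p = 0.0491), and -0.53 between SKNO-1 and MV4-11, no longer called (limma adjusted p = 0.0727). TNFSF10 was not called in any pair of lines, with differences of -0.37 to 0.10. Without the high-mitochondrial libraries the TNFSF10 differences ran from -0.27 to -0.09. CXCL8 was 0.48 higher in MV4-11 than in Molm-14 and not called (limma adjusted p = 0.0546). This difference was 0.47 without the high-mitochondrial libraries.

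Over the members at 1 CPM or more in all 3 libraries of both groups, 2 of 4 differed between SKNO-1 and Molm-14, against 61.2% of all genes that met the same condition and 65.3% of all genes tested. Between SKNO-1 and MV4-11 it was 4 of 5, against 41.2% and 42.5%, and between MV4-11 and Molm-14 it was 1 of 4, against 52.7% and 54.2%. With 4 or 5 genes counted, these shares describe the genes named above and no more.

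Levels of different genes can be set side by side only per length of transcript. In CPM per kilobase of the longest annotated transcript, TNF with DMSO was at 49.9 for Molm-14, 51.7 for MV4-11 and 9.81 for SKNO-1. The next highest level in Molm-14 was TNFSF10 at 3.59, in MV4-11 LTB at 5.49 and in SKNO-1 CXCL8 at 6.19. CCL2 per kilobase ran from 0.04 in Molm-14 to 3.44 in SKNO-1, and CXCL10 from 0.01 in SKNO-1 to 0.40 in Molm-14. TNF led in each line, by a smaller margin in SKNO-1.

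**Figure D3:**
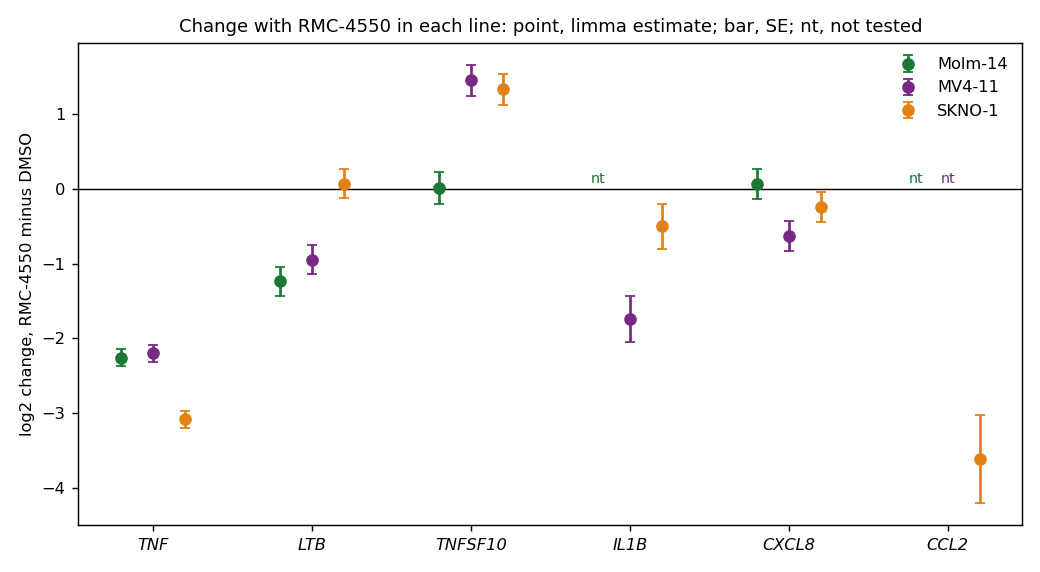
Log2 change with RMC-4550 in each line (vertical axis, estimate with its SE as a bar) for the 6 genes with a fit; nt marks a gene not tested in a line for few reads, and the MV4-11 values are a description. TNF lay between -3.08 and -2.20 in all 3 lines, LTB was near 0 in SKNO-1 alone, and TNFSF10 was near 0 in Molm-14 and above 1.3 in the others.

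In Molm-14, 2 of 4 tested members fell with RMC-4550 and 0 rose, where 46.7% of all genes tested were called, 21.5% higher and 25.2% lower. The median change of the 4 was -0.61, against -0.06 over all genes. In SKNO-1, where CCL2 is left out of the count because it passed the filter through its DMSO libraries alone, 2 of 5 were called, 1 higher and 1 lower. There 27.1% of all genes were called, 10.8% higher and 16.2% lower, and 27.3% of genes at 1 CPM or more in 3 libraries of both groups. Between the responses of SKNO-1 and Molm-14, 3 of 4 members differed, against 10.9% of genes. In MV4-11 the fit that is not read as a test here called 13.9% of genes, 5.85% higher and 8.03% lower, and the libraries of the 2 groups did not overlap for 24.6%. There 5 members had a fit, IL1B through its DMSO libraries alone, and none of them overlapped between groups. Without the 4 libraries of high mitochondrial share, TNF and LTB were called in Molm-14, TNF and TNFSF10 in SKNO-1, and the responses of SKNO-1 and Molm-14 differed by -0.75 for TNF, 1.47 for LTB and 1.03 for TNFSF10, all called.

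Receptor genes of these cytokines moved in both directions in Molm-14. Of 13 tested there, 3 rose and 6 fell, against 21.5% of all genes higher and 25.2% lower, and the median was -0.34. Of 15 in SKNO-1, 2 rose and 0 fell, against 10.8% and 16.2%, and the median was -0.01. The rises in both lines were thus near the shares of all genes. This list and its counts include IL1RN, which encodes the IL-1 receptor antagonist and not a receptor. IL1RN was among the falls in Molm-14 (-0.73, limma adjusted p = 0.0494), and without the high-mitochondrial libraries it was at -0.29 and not called there. TNFRSF1A, the broadly expressed TNF receptor, averaged 100.5 ± 1.08 CPM (SD, n = 3) in untreated Molm-14, 110.9 ± 23.2 for MV4-11 and 180.1 ± 9.62 for SKNO-1, and its change was not called in Molm-14 (-0.25) or SKNO-1 (-0.06). TNFRSF1B, the other TNF receptor, rose in Molm-14 from 65.3 ± 3.81 to 143 ± 26.5 CPM (log2 change 1.11, limma adjusted p = 1.54e-05). The change was 1.27 and called in the fit without the 4 high-mitochondrial libraries. In SKNO-1 TNFRSF1B was at 172 ± 2.74 and 170.3 ± 8.47 CPM.

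IL10RA, the ligand-binding chain of the IL-10 receptor, rose in Molm-14 from 20.7 ± 1.46 to 52.9 ± 14.8 CPM (1.31, limma adjusted p = 5.88e-05). In SKNO-1 it rose from 40.3 ± 0.83 to 60.5 ± 3.18 CPM (0.59, limma adjusted p = 0.0353). Without the 4 high-mitochondrial libraries the Molm-14 change of IL10RA was 1.57 and called. IL1RAP, the shared chain of the IL-1 receptor, fell in Molm-14 from 92.4 ± 3.54 to 49.7 ± 12.6 CPM (-0.93, limma adjusted p = 0.00245). Its change was -0.70 and called without those libraries. LTBR was at 69.5 to 81.0 CPM with DMSO in the 3 lines and was not called with drug in Molm-14 or SKNO-1 in the main fit. Without the high-mitochondrial libraries its change of -0.22 in SKNO-1 was called (limma adjusted p = 0.00894), and that in Molm-14 was not.

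Among 16 other cytokine and chemokine genes tested in each line, 6 rose and 0 fell in SKNO-1, against 10.8% of all genes higher and 16.2% lower, with a median of 0.39. In Molm-14, 4 rose, a share near the 21.5% of all genes, and 1 fell, against 25.2%, with a median of 0.19. In SKNO-1, IL18, an IL-1 family cytokine, rose from 15.2 ± 0.30 to 30.6 ± 2.16 CPM (1.01, limma adjusted p = 1.32e-06). TNFSF13B, the B cell survival factor BAFF, rose from 32.4 ± 0.91 to 58.7 ± 4.77 CPM (0.85, limma adjusted p = 1.71e-05), and CXCL16, a transmembrane chemokine, rose by 0.86 (limma adjusted p = 0.000706). In Molm-14 the named rises were IL16 (0.70), TNFSF13 (0.70) and TGFB1 (0.59). They were 0.84, 1.09 and 0.77 in the fit without the 4 high-mitochondrial libraries, each called. In MV4-11, CCL5, a chemokine for T cells and monocytes, was at 209 ± 41.7 CPM with DMSO and 121 ± 21.5 CPM with drug. The CCL5 change was -0.40 in Molm-14 and -0.24 in SKNO-1, neither called in the main fit. Without the 4 high-mitochondrial libraries it was -0.58 in Molm-14 and -0.24 in SKNO-1, both called.

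Genes that act on the release or decay of cytokines did not move one way. In Molm-14, 5 of 12 rose and 3 fell, against 21.5% and 25.2% of all genes, and in SKNO-1, 1 rose and 2 fell, against 10.8% and 16.2%, so that the falls in both lines and the rise in SKNO-1 were near the shares of all genes. TNFAIP3, which encodes the NF-kB brake A20 and is itself an NF-kB target, fell in Molm-14 from 171 ± 3.97 to 100.03 ± 4.61 CPM (-0.78, limma adjusted p = 2.17e-07) and in SKNO-1 from 54.7 ± 1.18 to 31.2 ± 0.32 CPM (-0.81, limma adjusted p = 2.36e-07). ZFP36L1, a relative of the protein that marks TNF messages for decay, rose in Molm-14 from 38.0 ± 1.46 to 70.4 ± 2.62 CPM (0.89, limma adjusted p = 1.19e-07) and fell in SKNO-1 from 13.8 ± 0.18 to 9.47 ± 0.37 CPM (-0.55, limma adjusted p = 2.79e-05). In MV4-11 it was at 33.7 ± 0.92 and 20.8 ± 0.31 CPM. ADAM17, the protease that cuts TNF free, fell in Molm-14 from 30.3 ± 0.63 to 20.1 ± 6.75 CPM (-0.66, limma adjusted p = 0.0293). In the fit without the 4 high-mitochondrial libraries the change was -0.35 and called. RHBDF2, a partner of ADAM17, rose in Molm-14 by 0.97 (limma adjusted p = 0.000173), or 0.80 and called without those libraries. NLRP3, a sensor of the inflammasome, fell there (-0.78, limma adjusted p = 0.00655), with -0.58 and a call without those libraries. ADAM17 was not called in SKNO-1 (-0.34) in the main fit, but the same change was called there without those libraries (limma adjusted p = 0.00745).

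In the NF-kB list, 1 of 9 rose and 2 fell in Molm-14, against 21.5% and 25.2% of all genes. In SKNO-1, 0 of 10 rose and 3 fell, against 10.8% and 16.2%. RELA changed there by -0.49 (limma adjusted p = 0.0398) and NFKB2 by -0.40 (limma adjusted p = 0.0425). NFKBIA, the inhibitor IκBα, rose in Molm-14 by 0.60 (limma adjusted p = 4.1e-05). TNFAIP3 and NFKBIA stand in both of the last lists.

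Leaving out the 4 high-mitochondrial libraries moved the counts in both lines, although none of the 4 is a SKNO-1 library. Of all genes, 27.7% were then higher and 31.3% lower in Molm-14, and 21.2% and 32.1% in SKNO-1. In Molm-14 the counts were 4 higher and 6 lower for the receptors, 6 and 2 for the other cytokines, 6 and 3 for release and decay and 1 and 3 for NF-kB. In SKNO-1 they were 5 and 5 for the receptors, 8 and 1 for the other cytokines, 7 and 3 for release and decay and 1 and 7 for NF-kB.

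The interferon-induced genes rose together and the ERK output genes fell together. Both lists were chosen with earlier results of these data known. In Molm-14, 8 of 9 interferon-induced genes rose, against 21.5% of all genes, with a median of 1.74. In SKNO-1, 9 of 10 rose, against 10.8% of all genes, with a median of 2.14. Of these, 1 in Molm-14 and 2 in SKNO-1 passed the filter through the treated libraries alone, so for them a rise was a condition of being tested. Without the high-mitochondrial libraries 8 rose and 1 fell in Molm-14 and 10 rose in SKNO-1. IFIT1, an antiviral RNA-binding protein, rose from 2.25 ± 0.10 to 9.21 ± 0.66 CPM in Molm-14, was at 0.96 ± 0.10 and 9.84 ± 2.02 CPM in SKNO-1 and was at 1.04 ± 0.06 and 29.9 ± 4.56 CPM in MV4-11 (SD, n = 3). Of the members, CXCL10 and TNFSF10 are interferon-inducible by textbook knowledge. CXCL10 stayed at 14 reads or fewer in the libraries in which IFIT1 was at these levels.

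All 6 ERK output genes tested in Molm-14 fell, with a median of -2.14, and all 5 in SKNO-1, with a median of -1.52, also without the high-mitochondrial libraries. In each line 1 of them passed the filter through the DMSO libraries alone. ETV5, a transcription factor gene downstream of ERK, went from 60.3 ± 1.09 to 10.3 ± 4.81 CPM in Molm-14 and from 37.5 ± 0.84 to 12.5 ± 1.02 CPM in SKNO-1. The median in MV4-11 was -0.92, and DUSP6, an ERK phosphatase, was there at 108 ± 21.03 CPM with DMSO and 56.7 ± 10.2 with drug.

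**Figure D4:**
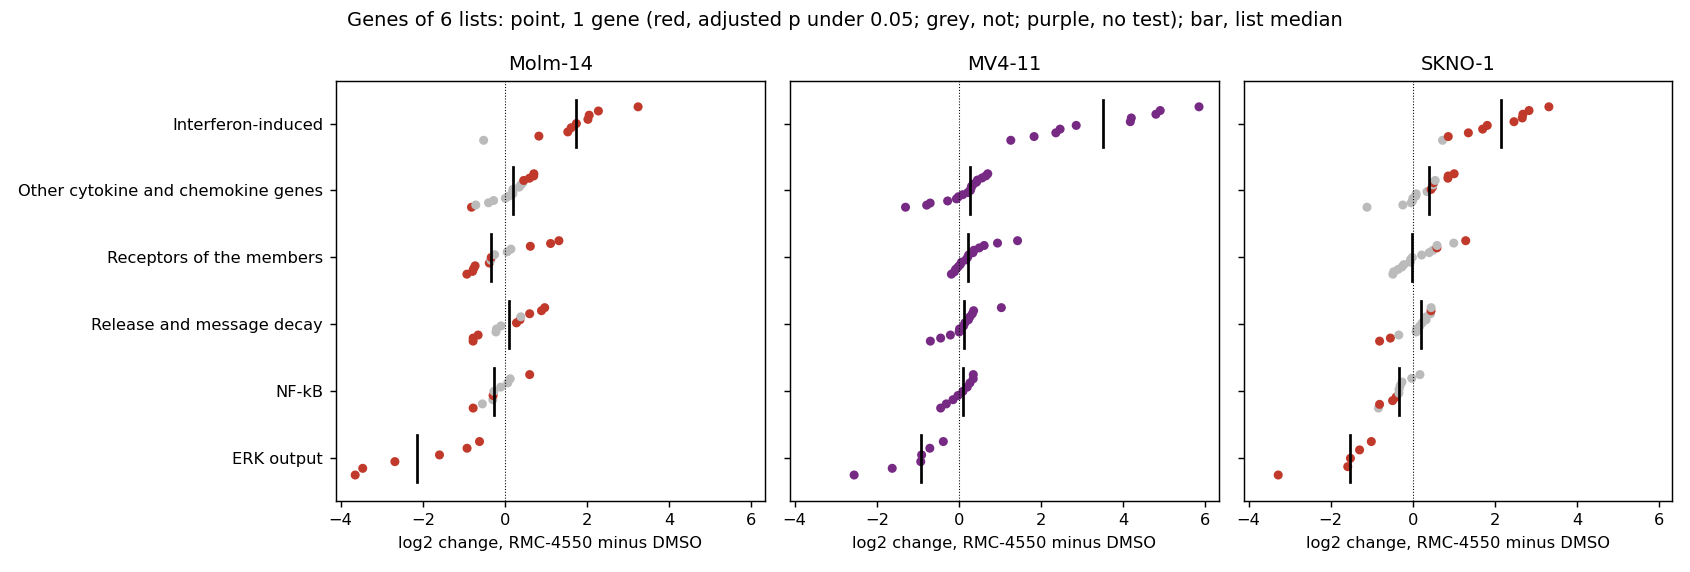
Log2 change with RMC-4550 (horizontal axis) of every tested gene of 6 lists in each line, with 1 point per gene (red, limma adjusted p under 0.05; grey, not called; purple, MV4-11, shown without a test) and a bar at the list median. The interferon-induced medians were 1.74, 3.51 and 2.14 and the ERK output medians -2.14, -0.92 and -1.52, from the left panel to the right.

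Of 4 monocytic markers, CSF1R moved with the drug in Molm-14 and CSF1R and ITGAM did in SKNO-1, beside these cytokine changes. CSF1R, the M-CSF receptor, rose by 2.47 in Molm-14 (limma adjusted p = 3.26e-08) and by 1.06 in SKNO-1 (limma adjusted p = 0.000253). ITGAM, an integrin chain of myeloid cells, rose by 0.78 in SKNO-1 (limma adjusted p = 9.94e-07) and was not called in Molm-14 (-0.06, limma adjusted p = 0.526). The sum of CD14, ITGAM, CSF1R and CD68 ran from 49.5 to 58.0 CPM in Molm-14 with DMSO and from 92.6 to 119 CPM with RMC-4550. It ran from 94.8 to 116 and from 169 to 213 CPM in MV4-11, and from 155 to 165 and from 310 to 344 CPM in SKNO-1. CSF1R made up most of the sum in treated cells, at 70.2 ± 13.01 CPM in Molm-14 and 277 ± 16.8 CPM in SKNO-1. CD14 was at the floor in both SKNO-1 groups and in MV4-11 with DMSO, and CD68 was at it in untreated SKNO-1 and treated Molm-14, and neither had more than 9 reads in any library. The part of this shift in the changes of TNF, LTB, TNFSF10 and CCL2 was not tested.

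The genes whose pattern was most like that of TNF were DAZAP1, LSM4 and TEDC2, with Pearson r of 0.9737, 0.9732 and 0.972 over the 18 libraries among 11025 genes compared. The 18 libraries are 6 groups of 3 and share the lines and the drug, so the r describes group levels and has no p. DAZAP1 was at 356 ± 3.29, 337 ± 33.9 and 226 ± 3.37 CPM with DMSO (Molm-14, then MV4-11, then SKNO-1) and at 261 ± 24.3, 245 ± 19.8 and 157 ± 4.78 CPM with RMC-4550. TEDC2 was at 12.2 ± 0.45, 10.1 ± 1.74 and 6.30 ± 0.79 CPM and then at 5.67 ± 0.40, 6.52 ± 0.63 and 1.83 ± 0.32 CPM. Their spans were smaller than that of TNF, which ran from 1.57 to 92.1 CPM.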

How the data were processed

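The authors deposited 1 table of log2 values for 40184 Ensembl gene IDs in 18 libraries. Submitters' processing notes name FastQC, STAR, limma and GRCh38; the counter and annotation are not given in the sources used here. Per the labels' protocols, polyadenylated RNA was amplified and sequenced as DNA nanoballs, without molecular identifiers, so floors and counts cover counting error only. From the values, each log2 value is the logarithm of a CPM value computed after adding 0.5 to the read count, with library scaling factors of 0.8903 to 1.1128, and undoing this gave whole reads for 100% of values under 200 reads (tolerance 0.05). Symbols were matched by ID for 40069 genes. Gene positions are from GENCODE 29 and promoters from RefSeq.

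All contrasts came from 1 limma 3.58.1 fit in R 4.3.3 (lmFit, eBayes with trend, two-sided) over 18 libraries with 1 coefficient per group, on the deposited log2 values. A gene entered with at least 1 CPM in at least 3 libraries overall (16262 genes) and in the lines compared, and p-values were adjusted by Benjamini-Hochberg over all genes tested. Calls used an adjusted p under 0.05. The script was tested on simulated data. Figures used matplotlib 3.10.9 in Python 3.11.15.

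The members and gene lists were chosen with earlier results of these data known. Named list genes were called in a line, had a mean of at least 5 CPM there and had the 3 largest changes; receptors and copies of members could be named beside them. Genes like TNF were ranked by Pearson r. Alternatives were other added constants, no filter, other scalings, separate fits, voom weights, a mitochondrial covariate, the replicate block and leaving out each library. Leaving out the 4 high-mitochondrial libraries, and counting members over genes that passed the filter in every group compared, were chosen after seeing the data. The listed genes CSF2, CCL7, CCL8, CXCL9, CCL3L1 and ACKR1 were not analysed here, and 1 listed gene is not reported by name.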

Additional observations from a re-analysis of the deposited data

Results flagged for a closer look

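The drug response of 3 members differed between SKNO-1 and Molm-14 by an interaction term in the limma fit. TNFSF10 differed by 1.32 on the log2 scale (adjusted p = 0.00906), since it rose in SKNO-1 and had a change of 0.01 in Molm-14, and the difference was 1.03 without replicate 2 of the treated Molm-14 libraries. LTB differed by 1.30 (adjusted p = 0.00598), since it fell in Molm-14 and had a change of 0.07 in SKNO-1. TNF differed by -0.83 (adjusted p = 0.00373), with falls in both lines and the larger on the log2 scale in SKNO-1. This difference was no longer called when 1 was added to the CPM before the logarithm. All 3 SKNO-1 libraries of each group stood apart from the other group for TNF and TNFSF10, and all 3 of Molm-14 did for TNF and LTB. SKNO-1 alone was grown with GM-CSF, so line and growth factor cannot be told apart here.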

How the results depend on the processing

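Of the values of members recomputed under the alternatives, 272 kept their side of the threshold, 4 lost a call and 3 gained one. With single libraries left out, 206 kept their side and 4 lost a call. The drug comparison in MV4-11 was not counted. No called value changed sign, but values not called before or after were counted as kept whatever their sign. The count of members called between MV4-11 and Molm-14 with DMSO was 2, and 1 with a separate fit per line, and it ran from 1 to 2 when single libraries were left out. Counted over members at 1 CPM or more in 3 libraries of both groups, it was 1, and the count between SKNO-1 and Molm-14 was 2 in place of 4, that between SKNO-1 and MV4-11 4 in place of 5 and that with drug in SKNO-1 2 in place of 3. Other changed calls were TNF in the SKNO-1 against Molm-14 response with log2(CPM + 1), at -0.38, IL1B with drug in SKNO-1, called in a separate fit (-0.505), and, between MV4-11 and Molm-14, CXCL8, called with log2(CPM + 1) (0.38), TNFSF10, called after quantile normalization (-0.59), and IL1B, which lost its call in 3 alternatives, with 0.20 after quantile normalization and 0.78 in the others. Over all genes, calls in MV4-11 went from 2045 to 671 with a separate fit and 5054 with the mitochondrial covariate, and to 1356 and 1214 without replicate 2 or 3 of its treated libraries. In SKNO-1 they went from 3969 to 8209 and 7270 under the same alternatives, and in the response comparison from 1400 to 3687 with the covariate and 923 without replicate 2 of SKNO-1 with DMSO. Median-ratio scaling moved the share of higher genes among those called in SKNO-1 from 40.0% to 50.4%, and the median of all genes by up to 0.0637, in SKNO-1.

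With the replicate number as a block, 2 members were called in Molm-14 and 3 in SKNO-1, as without it, and the calls over all genes were 6099 in Molm-14, 3601 in SKNO-1 and 1734 in MV4-11. The labels give no shared origin to equal numbers, and same-numbered deviations had correlations of -0.052 to 0.003 in Molm-14, -0.399 to 0.591 in MV4-11 and 0.013 to 0.128 in SKNO-1, so the numbers were not taken to pair the libraries. Depth limits CXCL10, CCL3, CCL4 and IL10, for which no library reached 1 CPM.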
